A study of Mus musculus with 23 samples.

Results

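The genes described here encode albumin and 9 other proteins that the liver secretes into blood plasma, where they bind and carry metals, heme, vitamins, hormones or proteases. They are Alb, Ttr, Trf, Gc, Rbp4, Ahsg, Fetub, Hpx, Ambp and Pzp, taken by gene symbol from a table of counted RNA-seq reads. All 10 were found among the 27179 genes of the table, and none was lost to a filter on low values because no filter was applied. The 15 mice were female, 6 Ctrl, 6 ABpIF/+ and 3 ABpIF/F, and the liver tissue taken from them held no visible tumor. All mice carried Alb-Cre, a Cre recombinase expressed from the albumin promoter and hence active in hepatocytes, and 2 floxed Trp53 alleles (Trp53 flx/flx). Ctrl mice were wild type for Braf and carried Icmt flx/+. ABpIF/+ mice carried the BrafCA/+ allele, which yields BrafV600E after recombination, and Icmt flx/+, while ABpIF/F mice carried BrafCA/+ and Icmt flx/flx. Trp53 deletion and Cre were thus shared by all groups, and no group without them was analysed here. The genotype labels write BRAF +/+ for both ABpI groups, whereas the design text of the series gives BrafCA/+ for them. The strain label of 5 controls is a B6 line with Icmt tm1Mbrg, Trp53tm1Brn and wild-type Braf alleles crossed to Albcre mice, and that of the control BG3 and all ABpI mice adds a cross to a B6 line with Trp53tm1Brn, Braftm1Mmcm and Icmt tm1Mbrg. The sample labels give no age. The paper describes its 3 ABpIF/F mice as being of different ages, without the mouse names used here. It also reports weight loss in ABpIF/+ but not in Ctrl or ABpIF/F mice. The part of age and body weight in the differences between groups was not tested.

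Plasma carrier proteins are made with a signal peptide, folded in the endoplasmic reticulum of hepatocytes and released into the circulation. Albumin, the most abundant plasma protein, carries fatty acids, bilirubin and hormones, and its transcription in hepatocytes depends on factors that include the C/EBP and PAR bZIP families. Several carriers are acute phase proteins: albumin, transthyretin and retinol binding protein are known to fall in plasma during inflammation, whereas hemopexin is known to rise. In mice, transferrin and Pzp are also often listed among proteins that respond to inflammation or hormones.

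The targeted gene Icmt, which encodes isoprenylcysteine carboxyl methyltransferase, measured 30.8 ± 2.72 CPM (SD, n = 6) in Ctrl, 32.7 ± 3.49 CPM (SD, n = 6) in ABpIF/+ and 15.9 ± 0.711 CPM (SD, n = 3) in ABpIF/F mice. CPM are counts per 1000000 reads after TMM scaling of the library sizes. The log2 fold change of Icmt in ABpIF/F vs Ctrl was -0.96 ± 0.13 (SE, edgeR adjusted p = 8.51e-06), and no ABpIF/F mouse overlapped either other group. The labelled tissue was checked on 12 hepatocyte markers outside the carriers. Their summed level was 27330 to 32940 CPM in Ctrl, 46630 to 64660 CPM in ABpIF/+ and 25410 to 37100 CPM in ABpIF/F mice. With an edgeR adjusted p under 0.01 and at least 2-fold, 3 markers were higher in ABpIF/+ than in Ctrl mice. In ABpIF/F vs Ctrl 1 was higher and 4 were lower, although the summed ranges overlapped. Apoa1, a marker that itself encodes a plasma protein, averaged 5788 CPM in Ctrl, 26830 CPM in ABpIF/+ and 18410 CPM in ABpIF/F mice. Apoa1 was among the markers higher in both ABpI groups and, like Apob, is counted again among other plasma proteins below. Since abundant genes weigh most in a sum, these sums do not measure the amount of hepatocyte RNA. The genes of a mouse held 24742910 to 32262649 counted reads. TMM factors were 0.978 to 1.09 in Ctrl and 0.846 to 0.969 in ABpIF/+ mice, and BG38, an ABpIF/F mouse, stood apart with 1.24. A score of core clock genes, high where Bmal1 and its partners are high and Dbp and Per genes low, was 1.08 to 3.31 in ABpIF/F and -1.15 to -0.158 in ABpIF/+ mice. In Ctrl mice it was -1.32 to -0.459 apart from malpa387, at 2.33. Since 5 of the 6 controls differ from the ABpI mice in strain label, the strain label and the Braf genotype cannot be told apart over most of the controls.

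Alb held 9.36% ± 0.962 of all counted reads in Ctrl (SD, n = 6), 14.2% ± 1.49 in ABpIF/+ (SD, n = 6) and 14.9% ± 2.92 in ABpIF/F mice (SD, n = 3). The 10 genes together held 13.1% to 17.5% of the reads in Ctrl, 19.6% to 24.8% in ABpIF/+ and 22.5% to 27.2% in ABpIF/F mice, so that no Ctrl mouse overlapped either ABpI group. The larger share was not confined to Alb. Of the reads outside Alb the other 9 held 5.31% to 7.16% in Ctrl, 8.62% to 11.8% in ABpIF/+ and 11.1% to 14.6% in ABpIF/F. Much of this was Trf, with a mean of 2.01% of all reads in Ctrl, 4.92% in ABpIF/+ and 5.43% in ABpIF/F mice. Ahsg held 0.987%, 1.605% and 1.628% in the same groups. Mean shares of Rbp4, Hpx and Ambp were also higher in ABpIF/+ than in Ctrl mice, and those of Ttr, Gc, Fetub and Pzp were not. These shares are of sequenced RNA, and in whole liver a change in the number of hepatocytes cannot be told apart from a change in RNA per hepatocyte.

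**Figure D1:**
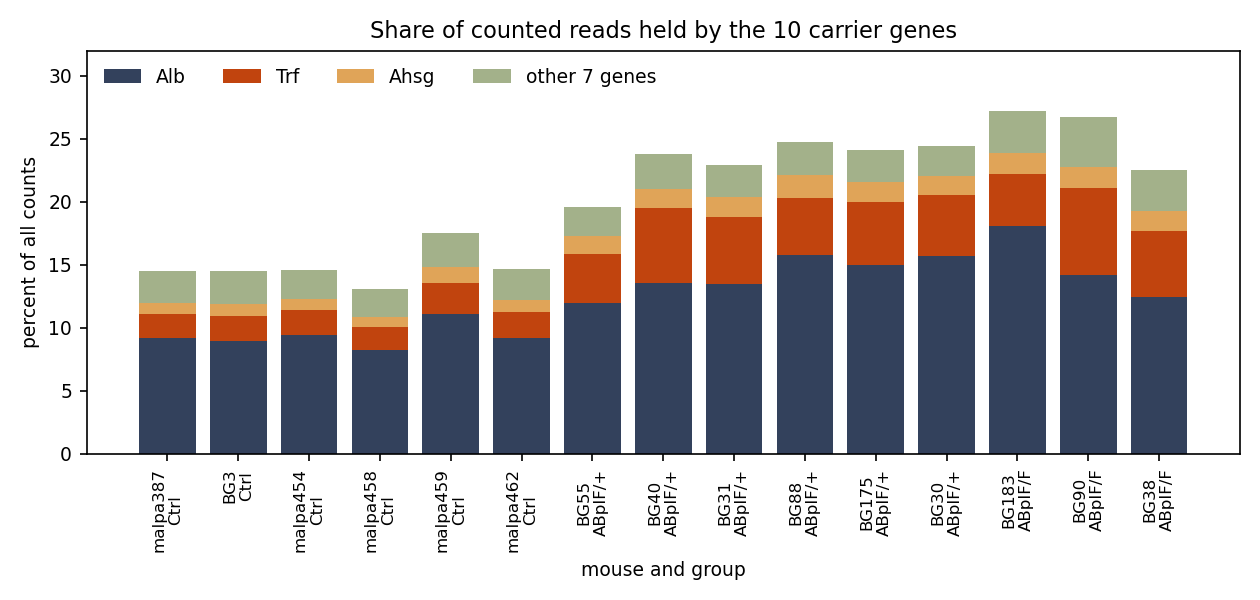
Percent of all counted reads (y axis) held by Alb, Trf, Ahsg and the other 7 carrier genes, stacked, in each of the 15 mice (x axis). The stacked bars of the 6 Ctrl mice end between 13.1% and 17.5% and those of the 9 ABpI mice between 19.6% and 27.2%.

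Levels of different genes were compared per kilobase of exon. On this scale Alb ranked first of 23906 genes with a known exon length in every group, with 38070 ± 3951 CPM per kilobase in Ctrl (SD, n = 6), 65660 ± 8575 in ABpIF/+ (SD, n = 6) and 61530 ± 17470 in ABpIF/F mice (SD, n = 3). In Ctrl mice the order below Alb was Trf at 5767 CPM per kilobase, Ahsg at 4282, Ttr at 3555, Gc at 3329, Rbp4 at 2171, Hpx at 1950, Ambp at 1486, Pzp at 746 and Fetub at 239. Neighbours in this order overlapped between mice from Trf down to Gc and from Rbp4 down to Ambp, whereas Alb and Trf, Gc and Rbp4, Ambp and Pzp, and Pzp and Fetub did not overlap. Among the 10 carriers, Rbp4 stood at rank 4 in ABpIF/+ mice, at 4154 CPM per kilobase, and Ttr at rank 7, at 2023. In ABpIF/F mice Hpx stood at rank 4 of the 10, at 4419 CPM per kilobase, and Rbp4 at rank 8, at 1977. That rank of Hpx rested on BG90, since Hpx ranged from 3079 to 7093 and Gc, at rank 5, from 3418 to 4211. Trf stood next to Alb and Fetub last among the 10 genes in all groups.

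RefSeq promoter windows of 250 bases before and 50 bases after the annotated gene start, on GRCm38.p6, were matched by symbol for 8 of the 10 genes in 10 windows, and not for Trf and Ttr. The windows of Alb, whose promoter also drives the Cre transgene, and of the 3 genes with a window that changed at least 2-fold in some comparison (Hpx, Pzp and both starts of Rbp4) are shown 5′ to 3′ on the strand of the gene. Capitals mark matches to TATAAA on the gene's strand, and to CCAAT, an element bound by NF-Y, on either strand. The D box TTANGTAA, bound by PAR bZIP and C/EBP factors, was also marked on either strand.
Alb, plus strand, chr5:90460620-90460919: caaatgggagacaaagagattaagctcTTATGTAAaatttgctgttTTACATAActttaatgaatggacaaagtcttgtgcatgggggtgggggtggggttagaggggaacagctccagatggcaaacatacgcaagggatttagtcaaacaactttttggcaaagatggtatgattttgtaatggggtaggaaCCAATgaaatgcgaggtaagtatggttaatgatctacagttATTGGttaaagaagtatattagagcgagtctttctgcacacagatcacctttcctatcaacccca
Hpx, minus strand, chr7:105600067-105600366: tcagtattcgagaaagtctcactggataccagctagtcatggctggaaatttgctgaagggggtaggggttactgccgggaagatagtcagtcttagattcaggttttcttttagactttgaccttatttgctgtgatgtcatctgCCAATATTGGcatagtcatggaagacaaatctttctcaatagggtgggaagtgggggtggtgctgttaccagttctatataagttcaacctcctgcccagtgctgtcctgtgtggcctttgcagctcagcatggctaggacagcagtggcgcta
Pzp, minus strand, chr6:128526671-128526970: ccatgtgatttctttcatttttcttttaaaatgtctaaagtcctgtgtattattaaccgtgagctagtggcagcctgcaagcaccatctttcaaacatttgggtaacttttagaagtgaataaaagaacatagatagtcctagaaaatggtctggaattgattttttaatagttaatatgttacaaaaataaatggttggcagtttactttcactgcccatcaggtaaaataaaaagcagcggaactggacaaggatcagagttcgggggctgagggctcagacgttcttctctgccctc
Rbp4, minus strand, upstream start, chr19:38125272-38125571: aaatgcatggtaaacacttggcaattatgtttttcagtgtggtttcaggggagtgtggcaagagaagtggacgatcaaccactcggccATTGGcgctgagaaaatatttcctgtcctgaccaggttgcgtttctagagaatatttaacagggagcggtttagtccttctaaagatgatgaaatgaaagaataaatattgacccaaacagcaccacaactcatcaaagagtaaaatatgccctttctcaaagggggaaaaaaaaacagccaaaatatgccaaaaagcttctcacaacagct
Rbp4, minus strand, downstream start, chr19:38124762-38125061: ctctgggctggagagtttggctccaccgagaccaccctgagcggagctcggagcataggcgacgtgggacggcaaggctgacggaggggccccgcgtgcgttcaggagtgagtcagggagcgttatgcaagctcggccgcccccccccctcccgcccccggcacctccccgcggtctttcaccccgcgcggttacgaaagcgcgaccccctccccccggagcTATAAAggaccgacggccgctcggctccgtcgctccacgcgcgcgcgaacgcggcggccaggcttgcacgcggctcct

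With the first base of the RefSeq start counted as 0, the Alb window held D box matches beginning at -223 and -204 and CCAAT matches at -56 and -15. The GENCODE start of Alb, at 90460897, lies downstream of that base. Sites that depart from the searched letters were not marked. It was the 1 window of the 10 with a D box match, which 2.3% of all 32851 promoter windows held. The downstream start of Rbp4 held a TATAAA match at -28, and the window of Fetub one at -31, against 8.3% of all windows. The Hpx window held adjoining CCAAT matches at -104 and -99. A CCAAT match was found in 7 of 10 windows and in 37.4% of all windows. The Pzp window held no match to these motifs. These matches describe letters in the windows and not binding of a factor.

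To ask what BrafV600E expression goes with in livers that keep 1 Icmt allele, ABpIF/+ mice were compared with Ctrl mice. Trf was 2.77-fold higher, and Rbp4, Ahsg and Alb were 1.91-fold, 1.85-fold and 1.73-fold higher, while Ttr was lower by a log2 fold change of -0.81. Gc, Fetub, Ambp and Pzp did not pass the test. A gene is said to have risen or fallen where edgeR's adjusted p was under 0.01, and is called where its fold change was also at least 2-fold. Of the 10 genes, 1 was called higher (Trf) and 0 were called lower by edgeR, against 4.69% and 5.35% of all 27179 genes. Of lower genes, 1 had an unadjusted p under 0.05, and DESeq2 also called 0. Without the fold limit 4 rose and 1 fell, against 9.25% and 9.16% of all genes. The median log2 fold change of the 10 genes was 0.51, beside 0.02 over genes with at least 1 CPM and -0.11 over the 1221 genes averaging 100 CPM or more, all 10 carriers among them. Of those 1221 genes, 12.2% were called higher and 14.6% lower. Mice of the groups did not overlap for 6 of the 10 genes, against 15.9% of all genes and 47.3% of the genes with at least 100 CPM.

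Among the carriers of iron and heme, Trf (chr9:103204001-103230444, minus strand, GRCm38) encodes transferrin, which carries iron to cells. Trf measured 17000, 18830 and 22500 CPM at the lowest, median and highest Ctrl mouse and 41850, 52690 and 63500 CPM in ABpIF/+ mice. The ABpIF/+ mice all lay above the Ctrl mice, and the log2 fold change was 1.47 ± 0.18 (SE, edgeR adjusted p = 1.19e-06). Hpx (chr7:105591613-105600137, minus strand) encodes hemopexin, which binds free heme. Hpx measured 2413, 2977 and 3370 CPM in Ctrl and 3672, 4426 and 7561 CPM in ABpIF/+ mice. The groups did not overlap, but the log2 fold change of 0.72 ± 0.21 missed the threshold (SE, edgeR adjusted p = 0.0137).

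Retinol binding protein and transthyretin, which circulate bound to each other and carry retinol and thyroxine, differed from Ctrl in opposite directions. Rbp4 (chr19:38116629-38125281, minus strand) measured 2616, 2736 and 3602 CPM at the lowest, median and highest Ctrl mouse and 4813, 5354 and 6888 CPM in ABpIF/+ mice. All ABpIF/+ mice lay above all Ctrl mice, with a log2 fold change of 0.94 ± 0.15 (SE, edgeR adjusted p = 3.90e-05). Ttr (chr18:20665280-20674321, plus strand) measured 2971, 4221 and 5577 CPM in Ctrl and 1951, 2301 and 2957 CPM in ABpIF/+ mice. The highest ABpIF/+ mouse lay just under the lowest Ctrl mouse, with a log2 fold change of -0.81 ± 0.21 (SE, edgeR adjusted p = 0.00429).

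Of the albumin family, Alb (chr5:90460897-90476602, plus strand) measured 76790, 88420 and 104900 CPM in Ctrl and 128900, 150100 and 186400 CPM in ABpIF/+ mice. The groups did not overlap, and Alb rose by a log2 fold change of 0.79 ± 0.18 (SE, edgeR adjusted p = 0.00168). Its relative Gc (chr5:89417522-89457898, minus strand), the vitamin D binding protein, measured 5683 to 6951 CPM in Ctrl and 6216 to 8254 CPM in ABpIF/+ mice. These ranges overlapped, and the log2 fold change of 0.15 ± 0.14 did not pass the test (SE, edgeR adjusted p = 0.518).

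Ahsg (chr16:22891277-22899449, plus strand) encodes fetuin-A, a carrier of calcium phosphate, and its neighbour Fetub (chr16:22918334-22939778, plus strand) encodes fetuin-B, an inhibitor of the egg coat protease ovastacin. Ahsg measured 7915, 9087 and 12210 CPM in Ctrl and 14870, 16710 and 22240 CPM in ABpIF/+ mice, without overlap, and rose by a log2 fold change of 0.88 ± 0.16 (SE, edgeR adjusted p = 0.000225). Fetub measured 370 to 604 CPM in Ctrl and 462 to 638 CPM in ABpIF/+ mice, and its log2 fold change of 0.17 ± 0.14 did not pass the test (SE, edgeR adjusted p = 0.486). Neither did the log2 fold change of 0.29 ± 0.19 of Ambp (chr4:63143275-63154799, minus strand; SE, edgeR adjusted p = 0.332), which encodes the precursor of alpha-1-microglobulin and bikunin. Pzp (chr6:128483567-128526720, minus strand), a protease-trapping macroglobulin, measured 3364 to 6206 CPM in Ctrl and 3487 to 5526 CPM in ABpIF/+ mice, with a log2 fold change of -0.11 ± 0.17 (SE, edgeR adjusted p = 0.888).

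BG3, the control with the strain label of the ABpI mice, was the highest Ctrl mouse for Rbp4, Ttr, Gc, Fetub, Hpx and Ambp, and for Trf it measured 20080 CPM, within the range of the other controls. Without BG3 the log2 fold change of Rbp4 was 1.01, which brings the genes called in ABpIF/+ vs Ctrl to 2 in place of 1.

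**Figure D2:**
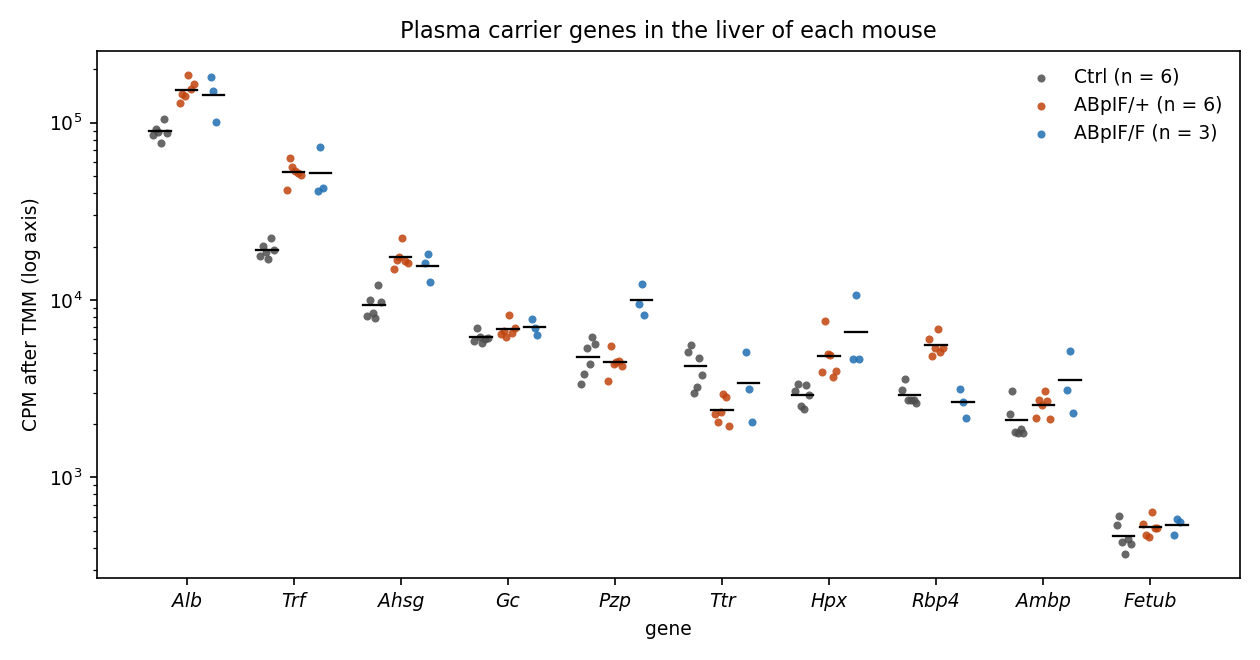
CPM after TMM scaling (y axis, log scale) of the 10 carrier genes (x axis) in each mouse, with 1 point per mouse in 3 colours for the groups and a line at the group mean. Trf lies at 17000 to 22500 CPM in Ctrl mice and at 41100 to 73200 CPM in ABpI mice, whereas Rbp4 is separate in ABpIF/+ mice and Pzp in ABpIF/F mice.

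The same question with both Icmt alleles floxed was addressed by ABpIF/F vs Ctrl. Trf was 2.73-fold, Hpx 2.27-fold and Pzp 2.09-fold higher in ABpIF/F mice, and Ahsg 1.66-fold higher. Rbp4 and Ttr, which differed from Ctrl in ABpIF/+ mice, did not pass the test here, nor did Alb, Ambp, Gc and Fetub. Of the 10 genes, 3 were called higher and 0 lower by edgeR, against 4.55% and 2.38% of all genes. Without the fold limit 4 rose and 0 fell, against 6.16% and 4.78% of all genes. No gene was lower at an unadjusted p under 0.05, and DESeq2 called 0 lower. Among the 1221 genes with at least 100 CPM, 4.34% were called higher and 19.7% lower. The median log2 fold change of the 10 genes was 0.71, beside -0.001 over genes with at least 1 CPM and -0.34 over those with at least 100 CPM. Mice did not overlap for 4 of the 10 genes, against 17.1% of all genes and 47.8% of those with at least 100 CPM.

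Trf measured 41100 CPM in BG183, 73200 in BG90 and 42630 in BG38. All ABpIF/F mice lay above the highest Ctrl mouse, and the log2 fold change was 1.45 ± 0.21 (SE, edgeR adjusted p = 2.26e-05). Hpx measured 4626 CPM in BG183, 10630 in BG90 and 4615 in BG38, so that BG90 was far above the other two mice, which lay above all Ctrl mice. Its log2 fold change was 1.18 ± 0.25 (SE, edgeR adjusted p = 0.00168). Pzp measured 9497 CPM in BG183, 12340 in BG90 and 8203 in BG38, all above the highest Ctrl mouse at 6206, and its log2 fold change was 1.06 ± 0.21 (SE, edgeR adjusted p = 0.000656). Ahsg measured 16160 CPM in BG183, 18120 in BG90 and 12590 in BG38, above the highest Ctrl mouse at 12210, and rose by a log2 fold change of 0.73 ± 0.19 (SE, edgeR adjusted p = 0.00962).

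Alb measured 181300 CPM in BG183, 150800 in BG90 and 100300 in BG38, and BG38 lay within the Ctrl range. The log2 fold change of Alb was 0.69 ± 0.21 (SE, edgeR adjusted p = 0.0249). Ambp measured 3125 CPM in BG183, 5170 in BG90 and 2297 in BG38, with a log2 fold change of 0.75 ± 0.23 (SE, edgeR adjusted p = 0.0217). Neither passed the threshold of 0.01. Ttr measured 5058 CPM in BG183, 3151 in BG90 and 2049 in BG38, spanning from below the Ctrl range to within it, with a log2 fold change of -0.30 ± 0.25 (SE, edgeR adjusted p = 0.548). Rbp4 measured 3141, 2654 and 2170 CPM in the same mice, and its 95% interval of the log2 fold change ran from -0.49 to 0.22 (edgeR adjusted p = 0.835). Gc and Fetub had log2 fold changes of 0.19 and 0.20 (edgeR adjusted p = 0.566 and 0.542).

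These calls rested in part on BG90, which also had the highest clock gene score at 3.31. Without BG90, the log2 fold change of Hpx was 0.66 (edgeR adjusted p = 0.0733) and that of Pzp 0.89 (edgeR adjusted p = 0.0106), so that Trf alone of the 3 stayed called, at 1.13 (edgeR adjusted p = 0.000574). When the clock score entered the fit, Pzp stayed called with its log2 fold change at 1.41 (edgeR adjusted p = 0.00732), while Trf, at 1.37 (edgeR adjusted p = 0.0141), and Hpx, at 0.89 (edgeR adjusted p = 0.233), did not. Without malpa387, the control with the high clock score, Pzp was at 0.98 (edgeR adjusted p = 0.00145), just under 2-fold. The clock score was 1.08 or more in all ABpIF/F mice and, outside them, in malpa387 alone. The score and the ABpIF/F genotype can thus hardly be told apart. A call lost in that fit, here or below, is not assigned to either of them. The part of sampling time in these differences was not tested.

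ABpIF/+ vs ABpIF/F compares 1 with 2 floxed Icmt alleles under BrafV600E and shares the strain label. Rbp4 was 2.10-fold higher and Pzp 2.25-fold lower in ABpIF/+ than in ABpIF/F mice, and the other 8 genes did not pass the test. Thus 1 gene was called higher and 1 lower, against 1.76% and 5.49% of all genes. With no fold limit the counts were again 1 and 1, against 4.20% and 6.75% of all genes. The median log2 fold change of the 10 genes was -0.04, beside 0.04 over genes with at least 1 CPM and 0.23 over those with at least 100 CPM, of which 13.4% were called higher and 3.03% lower. Mice did not overlap for Rbp4 and Pzp, that is for 2 of 10 genes, against 18.7% of all genes and 39.6% of those with at least 100 CPM.

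For Rbp4, the lowest ABpIF/+ mouse, at 4813 CPM, lay above the highest ABpIF/F mouse, at 3141, and the log2 fold change was 1.07 ± 0.19 (SE, edgeR adjusted p = 0.000334). For Pzp, the highest ABpIF/+ mouse, at 5526 CPM, lay below the lowest ABpIF/F mouse, at 8203, and the log2 fold change was -1.17 ± 0.21 (SE, edgeR adjusted p = 0.000315). Without BG90 the log2 fold change of Pzp was -0.99 (edgeR adjusted p = 0.00484), and without BG38 that of Rbp4 was 0.95 (edgeR adjusted p = 0.00287), each just under 2-fold. Scaled by library totals alone, that of Rbp4 was 0.89 (edgeR adjusted p = 0.000199).

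Trf, which was higher than Ctrl in both ABpI groups, differed between them by a log2 fold change of 0.02, with a 95% interval from -0.40 to 0.44 (edgeR adjusted p = 1.0). For Alb the difference was 0.09, with an interval from -0.33 to 0.52 (edgeR adjusted p = 1.0), and for Ahsg 0.15, with an interval from -0.24 to 0.54 (edgeR adjusted p = 0.810). For Ttr it was -0.51, with an interval from -0.99 to -0.03 (edgeR adjusted p = 0.177), for Ambp -0.47 (edgeR adjusted p = 0.184) and for Hpx -0.46 (edgeR adjusted p = 0.269). Differences of that size were not resolved with 3 ABpIF/F mice, whose coefficients of variation were 44.5% for Ttr, 41.9% for Ambp and 52.4% for Hpx.

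**Figure D3:**
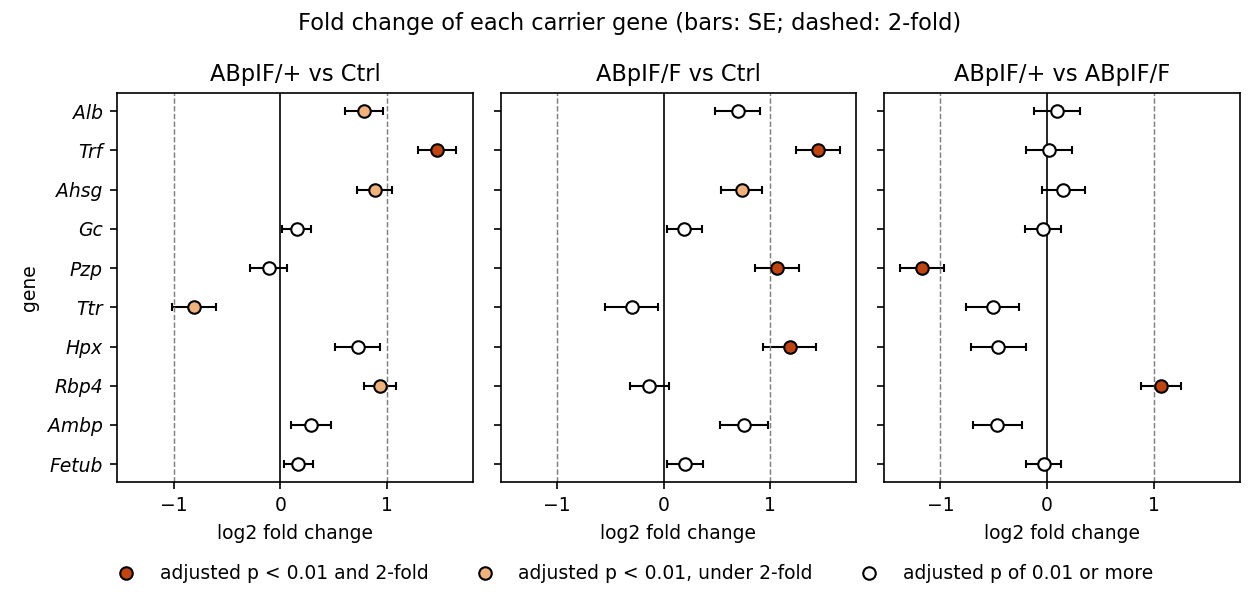
Log2 fold change (x axis) of each carrier gene (y axis) in 3 comparisons, with bars of 1 SE and dashed lines at 2-fold; the fill marks the edgeR test. Dark points are Trf in ABpIF/+ vs Ctrl, Trf, Hpx and Pzp in ABpIF/F vs Ctrl, and Rbp4 and Pzp in ABpIF/+ vs ABpIF/F.

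Ratios of counts within a mouse do not depend on how libraries are scaled, and they are given here as a description. The ratio of Rbp4 to Ttr ranged from 0.579 to 0.919 in Ctrl mice and from 1.78 to 2.75 in ABpIF/+ mice. In ABpIF/F mice it was 0.621 in BG183, 0.842 in BG90 and 1.06 in BG38, so that these mice overlapped Ctrl and lay below all ABpIF/+ mice. The ratio of Trf to Alb was narrow in Ctrl mice, at 0.208 to 0.221, and higher in ABpIF/+ mice, at 0.287 to 0.435. In ABpIF/F mice it was 0.227 in BG183, 0.485 in BG90 and 0.425 in BG38, all above Ctrl. The ratio of Pzp to Alb ranged from 0.0397 to 0.0643 in Ctrl, from 0.0241 to 0.0379 in ABpIF/+ and from 0.0524 to 0.0818 in ABpIF/F mice, the ABpIF/+ mice lying below both other groups. The ratio of Ahsg to Alb overlapped in all groups, at 0.0946 to 0.116 in Ctrl, 0.0982 to 0.123 in ABpIF/+ and 0.0892 to 0.126 in ABpIF/F mice. The ratio of Ahsg to its neighbour Fetub was 15.3 to 27.1 in Ctrl and 27.4 to 37.7 in ABpIF/+ mice, which did not overlap, and 22.5 to 34.4 in ABpIF/F mice, which overlapped both.

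**Figure D4:**
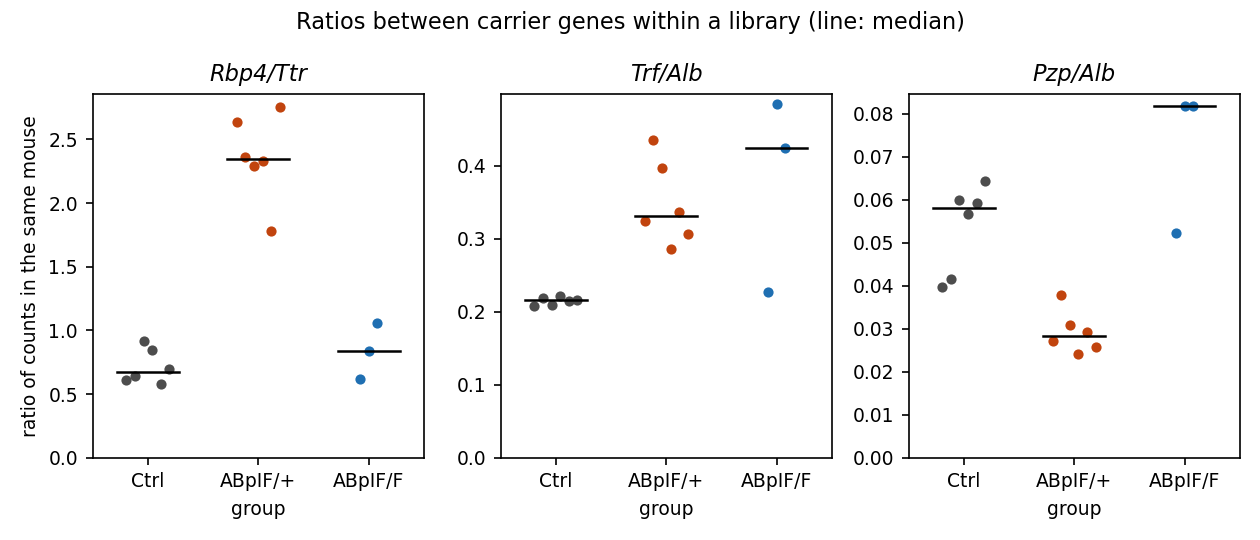
Ratio of counts within the same mouse (y axis) for Rbp4 to Ttr, Trf to Alb and Pzp to Alb in the 3 groups (x axis), with 1 point per mouse and a line at the group median. Rbp4 to Ttr separates ABpIF/+ mice, at 1.78 to 2.75, from both other groups, and Pzp to Alb places ABpIF/+ mice lowest, at 0.0241 to 0.0379.

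The genes did not move as 1 block. Over the 15 mice, which share genotypes, depth and scaling, Pearson's r of log2 CPM among the 45 pairs of carriers had a median of 0.49 and ranged from -0.61, between Ttr and Trf, to 0.95, between Alb and Ahsg. After the group means were removed, r ranged from -0.39 to 0.89. It was then 0.89 between Trf and Hpx, 0.77 between Gc and Rbp4, 0.75 between Ttr and Rbp4, and 0.70 between Alb and Ttr. The log2 fold changes of Ttr and Rbp4 had opposite signs between ABpIF/+ mice and each other group, with r of -0.41 over all mice. In ABpIF/F vs Ctrl both were negative, at -0.302 and -0.135, and neither passed the test. Once the group means were removed, Ttr and Rbp4 went together. Among 1211 other genes with at least 100 CPM, those most like Alb over the 15 mice were Serpina1a (r = 0.92), an alpha-1-antitrypsin, Apoa1 (r = 0.92), the main protein of high density lipoprotein, and Apom (r = 0.92), which carries sphingosine 1-phosphate. Those most like Pzp were Mug2 (r = 0.91), Hc (r = 0.91), which encodes complement C5, and C8a (r = 0.90).

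Gc varied least between Ctrl mice, with a coefficient of variation of 7.14%, and Ttr most, with 25%, beside a median of 16.2% over the genes with at least 100 CPM. In ABpIF/F mice the carriers ranged from 10.4% for Gc to 52.4% for Hpx, beside a median of 20.4%.

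Other plasma proteins of the liver and relatives of the carriers were counted in a list of 33 genes. Of these, 11 were called higher and 3 lower in ABpIF/+ vs Ctrl, 12 higher and 5 lower in ABpIF/F vs Ctrl, and 2 higher and 2 lower in ABpIF/+ vs ABpIF/F, with median log2 fold changes of 0.53, 0.84 and -0.06. Over all genes with at least 1 CPM the medians were 0.02, -0.001 and 0.04. Of all 27179 genes, 4.69% were called higher and 5.35% lower in ABpIF/+ vs Ctrl, and 4.55% and 2.38% in ABpIF/F vs Ctrl. In ABpIF/+ vs ABpIF/F these shares were 1.76% and 5.49%, and they also stand beside the lists and markers below. In ABpIF/F vs Ctrl, 8 were called higher and 3 lower without BG90, and 5 and 4 when the clock score entered the fit. Of the genes of this list that are named, Afp (edgeR adjusted p = 0.0157), Lcn2 (edgeR adjusted p = 0.0115), Hp (edgeR adjusted p = 0.0419) and Serpina6 (edgeR adjusted p = 0.0285) lost their call in that fit, and Serpina6 and Mug1 lost theirs without BG90 or without BG38. In ABpIF/+ vs ABpIF/F, Afm lost its call with the clock score (edgeR adjusted p = 0.0210). Lcn2, an iron siderophore binding protein, rose from 8.09 CPM in Ctrl to 415 CPM in ABpIF/+ (log2 fold change 5.68 ± 0.65, SE, edgeR adjusted p = 1.98e-05) and 608 CPM in ABpIF/F mice. Afp, the fetal relative and neighbour of Alb, rose from 3.94 ± 0.605 CPM in Ctrl (SD, n = 6) to 27.7 ± 12.2 CPM in ABpIF/+ (SD, n = 6) and 69.6 ± 55.5 CPM in ABpIF/F mice (SD, n = 3). A1bg fell from 1457 CPM in Ctrl to 108 CPM in ABpIF/+ and 0.499 CPM in ABpIF/F mice, and Igfals, which holds insulin-like growth factors in plasma, fell from 163 CPM to 26.2 CPM in ABpIF/+ mice. Serpina6, the carrier of corticosteroids, was 588 CPM in Ctrl, 1152 CPM in ABpIF/+ and 74.6 CPM in ABpIF/F mice, and was called lower in ABpIF/F vs Ctrl and higher in ABpIF/+ vs ABpIF/F. Afm, a vitamin E carrier of the albumin family, was lower in ABpIF/+ than in ABpIF/F mice, at 192 and 418 CPM.

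Pzp belongs to a macroglobulin family whose members resemble each other, so reads may be shared between them. Mug2, a relative of Pzp, was 660 CPM in Ctrl, 386 CPM in ABpIF/+ and 1870 CPM in ABpIF/F mice, called higher in ABpIF/F vs Ctrl (log2 fold change 1.5 ± 0.22, SE, edgeR adjusted p = 3.31e-05) and lower in ABpIF/+ vs ABpIF/F (-2.28 ± 0.22, SE, edgeR adjusted p = 5.74e-07). Mug1, at 1915 CPM in Ctrl, was called higher in ABpIF/F vs Ctrl at a log2 fold change of 1.12, and its log2 fold change of -0.91 in ABpIF/+ vs ABpIF/F did not pass the test (edgeR adjusted p = 0.0175). Hp, which binds hemoglobin as Hpx binds heme, was called higher in both ABpI groups, at log2 fold changes of 2.08 and 1.99 (edgeR adjusted p = 2.35e-06 and 4.00e-05). Mug1 and Hp were chosen after their values were seen.

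Of 20 receptors and uptake partners of the carriers, 2 were called lower in each comparison. edgeR called 0 higher in ABpIF/+ vs Ctrl, in ABpIF/F vs Ctrl and in ABpIF/+ vs ABpIF/F, where 2, 3 and 4 were higher at an unadjusted p under 0.05 and DESeq2 called 2, 1 and 0. Dab2, an endocytic adaptor, fell from 17.4 CPM in Ctrl to 4.98 CPM in ABpIF/+ mice, and Lrp1, a receptor that takes up hemopexin complexes and macroglobulins, from 1036 to 493 CPM. In ABpIF/F vs Ctrl, Fcgrt, the receptor that recycles albumin, fell from 199 ± 46.9 to 98.6 ± 13.2 CPM (SD, n = 6 and 3; log2 fold change -1.01 ± 0.18, SE, edgeR adjusted p = 0.000226), and Ftl1, a ferritin chain, from 1310 to 548 CPM. Without BG38 the log2 fold change of Fcgrt was -0.91 (edgeR adjusted p = 0.00340), under 2-fold. Dab2 and the transglutaminase Tgm2 were lower in ABpIF/+ than in ABpIF/F mice. The median log2 fold changes of the list were -0.18, -0.29 and 0.23. Of all genes, 5.35% were called lower in ABpIF/+ vs Ctrl, 2.38% in ABpIF/F vs Ctrl and 5.49% in ABpIF/+ vs ABpIF/F. Calls of 2 receptors or partners are not read as a change of the list.

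Of 23 factors known to act at the Alb promoter or in liver gene control, 2 were called higher and 1 lower in ABpIF/+ vs Ctrl. In ABpIF/F vs Ctrl 1 was called higher and 2 lower, and in ABpIF/+ vs ABpIF/F 3 were called higher. The median log2 fold changes were -0.14, -0.17 and 0.16. Of all genes, 4.69%, 4.55% and 1.76% were called higher and 5.35%, 2.38% and 5.49% lower in these comparisons. Calls of 1 to 3 factors are not read as a change of the list. Cebpd rose from 5.17 CPM in Ctrl to 16.5 CPM in ABpIF/+ mice (log2 fold change 1.68 ± 0.29, SE, edgeR adjusted p = 0.000298) and was 5.41 CPM in ABpIF/F mice, while Nfix fell from 51.7 to 25.6 CPM in ABpIF/+ mice. The PAR bZIP factors Tef and Hlf, which are also clock output genes and of which both entered the clock score, were 201 and 62.3 CPM in Ctrl, 268 and 72.9 CPM in ABpIF/+, and 49.4 and 30.3 CPM in ABpIF/F mice, and were called lower in ABpIF/F mice in both comparisons. Without BG90, without BG38 or when the clock score entered the fit, neither was called in ABpIF/F vs Ctrl. In ABpIF/+ vs ABpIF/F, Cebpd, Tef and Hlf were called higher, of which Tef alone stayed called with the clock score, and Tef and Hlf without BG90, where Cebpd was not (edgeR adjusted p = 0.0350). Scaled by library totals alone, Cebpd was not called there either (edgeR adjusted p = 0.0146). A score that contains Tef and Hlf takes up part of their own difference, so the fit with the score does not check their calls.

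Of 30 genes of endoplasmic reticulum folding and secretion, edgeR called 0 in ABpIF/+ vs Ctrl, as did DESeq2. Without the fold limit 3 of them rose and 3 fell, and 8 were higher and 10 lower at an unadjusted p under 0.05. In the other comparisons 1 gene was called, Herpud1, which acts in disposal of misfolded proteins and was 399 CPM in Ctrl, 623 CPM in ABpIF/+ and 179 CPM in ABpIF/F mice. In ABpIF/F vs Ctrl its log2 fold change was -0.84 with the clock score (edgeR adjusted p = 0.0427) and -0.93 without BG90 (edgeR adjusted p = 0.00458), and neither was a call.

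Of 23 positive acute phase genes, 9 were called higher and 1 lower in ABpIF/+ vs Ctrl. In ABpIF/F vs Ctrl 10 were called higher, and in ABpIF/+ vs ABpIF/F 1 lower, with medians of 0.53, 1.26 and -0.61 in the 3 comparisons. Without the fold limit 9 rose and 2 fell in ABpIF/+ vs Ctrl, and the gene called lower there is not among those named here. Lcn2, Hp, Cp, Orm1, Orm2, Orm3 and Itih4 also belong to the list of other plasma proteins above. Of these, Lcn2, Hp and Cp were called higher than Ctrl in both ABpI groups and are counted in both lists. In ABpIF/+ vs Ctrl, Orm1 (log2 fold change -1.35, edgeR adjusted p = 0.242), Orm2 (-0.33), Orm3 (-0.145) and Itih4 (0.35) did not pass the test. Orm1 averaged 640 CPM in Ctrl and 250 CPM in ABpIF/+ mice. Serpina3n, a protease inhibitor, rose from 333 CPM in Ctrl to 1699 CPM in ABpIF/+ mice. Socs3, a feedback inhibitor of cytokine signalling, rose from 4.19 ± 1.12 to 20.9 ± 15.2 CPM in the same groups (SD, n = 6 each). Cd14, a lipopolysaccharide coreceptor, rose from 2.79 CPM in Ctrl to 14.1 CPM in ABpIF/+ and 29.6 CPM in ABpIF/F mice. Il1rn, an inhibitor of interleukin-1, rose from 3.6 to 12.1 and 40.4 CPM in the same groups, and Apcs, serum amyloid P, from 116 to 536 and 670 CPM. In ABpIF/F vs Ctrl, 8 of the list were called higher without BG90 and 3 when the clock score entered the fit. The gene called lower in ABpIF/+ vs ABpIF/F was Il1rn, which was not called with the clock score (edgeR adjusted p = 0.152), without BG90 (edgeR adjusted p = 0.0236) or without BG38 (edgeR adjusted p = 0.0376).

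Markers of other cell types moved with the groups. Of 8 stellate cell and fibroblast markers, 7 were called lower in ABpIF/+ than in Ctrl and 7 lower than in ABpIF/F mice. Their summed levels were 173 to 239 CPM in Ctrl, 40.1 to 86.6 CPM in ABpIF/+ and 156 to 270 CPM in ABpIF/F mice. These RNA levels run against the paper's staining, which showed more periportal collagen in ABpIF/+ livers and less of it in ABpIF/F livers. They are not read as a measure of fibrosis. Of 8 macrophage markers, 4 and 5 were called lower in ABpIF/+ mice, with sums of 317 to 443, 131 to 228 and 264 to 586 CPM in Ctrl, ABpIF/+ and ABpIF/F mice. Of 6 cholangiocyte markers, 4 were called higher in ABpIF/F vs Ctrl, with sums of 35.8 to 68.4 CPM in Ctrl, 29.9 to 145 CPM in ABpIF/+ and 205 to 1150 CPM in ABpIF/F mice. Of 5 neutrophil markers, 4 were called higher in ABpIF/F vs Ctrl, with sums of 0.706 to 2.01 CPM in Ctrl, 1.77 to 6.15 CPM in ABpIF/+ and 2.19 to 67.7 CPM in ABpIF/F mice, and Ly6g was at 0 in all Ctrl mice. Of 12 hepatocyte markers, 3 were called higher in ABpIF/+ vs Ctrl, 1 higher and 4 lower in ABpIF/F vs Ctrl, and 6 higher in ABpIF/+ vs ABpIF/F, of which 3 were called with the clock score or without BG38. In that comparison 5 cholangiocyte and 3 neutrophil markers were called lower, and 2 and 0 with the clock score or without BG38, where 3 neutrophil markers were lower at an unadjusted p under 0.05 in each of those edgeR fits. Of 6 endothelial markers 2, and of 6 lymphocyte markers 2, were called lower in ABpIF/+ than in Ctrl mice. Of 6 pancreas markers and 4 red blood cell markers, edgeR called at most 1 in a comparison. When the clock score entered the fit, 5 stellate cell and 1 macrophage markers were called lower in ABpIF/+ than in ABpIF/F mice. In ABpIF/F vs Ctrl the same fit called 1 cholangiocyte marker higher and 2 hepatocyte markers lower. Of the neutrophil markers, 2 were called higher in ABpIF/F vs Ctrl without BG38, and edgeR called 0 with the clock score in the fit, where 5 had an unadjusted p under 0.05. The part of cell makeup in the differences of the carriers was not tested.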

How the data were processed

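Total RNA from frozen livers was made into stranded poly(A) libraries and sequenced as paired ends. The authors aligned reads to mm10 with HISAT2 (2.21 in the submitters' processing notes) and counted them with featureCounts 2.0.8, and the annotation and strand setting are not given in the sources used here. The deposited values are raw counts, without normalization, in 1 column for each of 15 mice, although 23 samples are listed and 8 mice are named by 2 of them. Per-mouse columns of a 2nd table that are headed by a number alone (5) were not used, and its other 10 held the same counts. Columns of the authors' own comparisons (fold changes, p-values) were not used.

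Counts of all 27179 genes were fitted in R 4.3.3 with edgeR 4.0.16 (quasi-likelihood F-test in its edgeR 3 form, TMM, robust dispersions, 3 groups in 1 model), and p-values were adjusted by Benjamini-Hochberg over all genes. Calls needed an adjusted p under 0.01 together with a change of 2-fold or more. The SE is the absolute log2 fold change over the square root of F, and 95% intervals follow from it. Log2 CPM used a prior count of 2. Exon lengths and positions were read from GENCODE M21 (GRCm38) for 88.0% of the genes. The fit was tested on simulated data. Each mouse is 1 replicate. Counts cannot tell reads of near-identical genes apart, and their precision is limited mainly by the number of mice.

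The carriers and gene lists were chosen with earlier results of these data known. Named genes are the 10 carriers, Icmt, the 3 genes most like Alb and Pzp, and called genes of the lists. Those of the lists were up to 4 per list and comparison, by absolute log2 fold change with at least 5 CPM in one group. Genes that the plasma protein and acute phase lists share are also named, and others are said to be chosen after seeing their values. Alternatives were RLE, upper quartile, library totals and scaling without the carriers, DESeq2 1.42.0, filterByExpr, the edgeR 4 method, no robust estimation, fits on the groups compared, the clock gene score (mean z of 5 genes minus that of 9) as covariate, other thresholds and leaving out each mouse. List counts without BG90, without BG38 and with the clock score were chosen after seeing the data. Some factors of the list are not reported here by name. No reads were analysed here.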

Additional observations from a re-analysis of the deposited data

Results flagged for a closer look

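In each group of 6 mice, the highest or lowest mouse was compared with the others by the gap to its nearest neighbour over the range of the group, with Dixon's 95% critical value of 0.625. Of 20 groups of values tested (10 carriers in Ctrl and in ABpIF/+ mice), 3 had a mouse beyond it, and chance flags about 1 in 20. In ABpIF/+ mice, BG88 was highest for Gc, at 8254 CPM with the next mouse at 6921, and for Ahsg, at 22240 CPM with the next mouse at 17410. BG88 also had the lowest TMM factor, 0.846, and without it the log2 fold change of Ahsg in ABpIF/+ vs Ctrl was 0.80. Its flags for Gc and Ahsg share that factor and are not separate. As a percent of all reads, before TMM, Gc was 0.698% in BG88 and 0.659% in BG30, the next mouse. Ahsg was 1.88% in BG88 and 1.65% in BG31, the next mouse. BG40 was highest for Hpx, at 7561 CPM with the next mouse at 4973, and without it the log2 fold change of Hpx in ABpIF/+ vs Ctrl was 0.55.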

How the results depend on the processing

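The numbers of carriers called were 1, 3 and 2 in ABpIF/+ vs Ctrl, ABpIF/F vs Ctrl and ABpIF/+ vs ABpIF/F. Leaving out 1 mouse at a time gave 1 to 2, 1 to 3 and 1 to 2. An adjusted p under 0.01 with any fold change gave 5 in the first comparison, an adjusted p under 0.05 gave 6 in the first and 6 in the second, and a 4-fold limit gave 0 in each, where edgeR had 6, 6 and 3 at an unadjusted p under 0.05 with any fold change. The clock gene score as covariate gave 1 in ABpIF/F vs Ctrl, and upper quartile factors or library totals alone gave 1 in ABpIF/+ vs ABpIF/F. Over the 30 fold changes of the carriers, 287 of 300 values under other settings and 433 of 450 without 1 mouse kept their direction and side of the threshold. Those that turned were not called in either fit. Library totals alone gave -0.027 for Gc and -0.011 for Fetub in ABpIF/+ vs Ctrl and -0.067 for Alb, -0.14 for Trf and -0.02 for Ahsg in ABpIF/+ vs ABpIF/F. The clock score gave -0.022 for Fetub in ABpIF/F vs Ctrl and 0.20 in ABpIF/+ vs ABpIF/F. In the latter comparison Trf was -0.056 with upper quartile factors and -0.001 with the groups compared alone, and leaving out 1 mouse gave -0.13 to 0.34 for Trf, -0.11 to 0.29 for Alb, -0.11 to 0.041 for Gc, -0.12 to 0.029 for Fetub and -0.66 to 0.064 for Hpx. Rbp4 was 0.996 with upper quartile factors there. The cause of these turns was not tested. Library totals alone moved the median log2 fold change of genes with at least 1 CPM to -0.16 in ABpIF/+ vs Ctrl and -0.15 in ABpIF/+ vs ABpIF/F, with 978 genes called higher and 1812 lower in place of 1275 and 1454, and 286 and 1891 in place of 478 and 1491. The clock score took the genes called from 1883 to 926 in ABpIF/F vs Ctrl and from 1969 to 739 in ABpIF/+ vs ABpIF/F, and leaving out BG38 took them to 1212 and 1155. No paired analysis was possible because the mouse numbers in the labels are not shared between groups. The other deposited table was not run, since its columns used here hold the same counts. With 3 ABpIF/F mice, the differences of Ttr, Ambp and Hpx between ABpIF/+ and ABpIF/F mice were not resolved.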
